A study of Mus musculus with 24 samples.

Results

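The genes described here encode cytosolic fatty acid binding proteins in mouse liver, namely Fabp1, Fabp2, Fabp4, Fabp5 and Fabp7. They were found by their gene symbols in 3 deposited tables of transcript level, which hold 10 features of these 5 genes among 69905 features in all. A feature is 1 assembled locus on 1 strand, and each of the 5 genes had 1 feature on its own strand and 1 on the opposite strand, with the strand worked out from the numbering of the loci. The members were selected on measured values of these same tables, so their levels and differences are given as descriptions with no test.

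Total RNA was sequenced from livers of wild-type mice, C57BL/6 per the labels and C57BL/6N per the methods of the study, 18 weeks old per the labels, in 6 groups of 4 livers. All mice had received injections of an LNA, a short locked nucleic acid antisense oligonucleotide of the kind used to lower a chosen RNA, for 12 weeks. The 4 groups with values in the tables were Scr LNA on NCD, Scr LNA on HFD, Mafg LNA on HFD and LincIRS2 LNA on NCD, where Scr is the control oligonucleotide, Mafg encodes a small MAF transcription factor and LincIRS2 is a long noncoding RNA. The high-fat diet (HFD) held 54 kJ% fat, 22 kJ% carbohydrate and 24 kJ% protein, and the control diet (NCD) held 11 kJ% fat, 62 kJ% carbohydrate and 27 kJ% protein. The Mafg LNA group on NCD and the LincIRS2 LNA group on HFD were not analysed here. The methods of the study describe male mice, a longer course of injections and a later age than the labels do. Livers are whole tissue, so fewer cells of a type and less RNA per cell cannot be told apart.

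Each group had 1 value per feature, the authors' FPKM (sequenced fragments scaled to transcript length and to the mapped total of a library) over its 4 pooled livers. No value per liver was used, so the spread between animals, the depth of each library and any p-value are unknown here, and every difference below compares pooled values. Where 2 tables held the same group, its values were identical. The FPKM summed over all features ranged from 1462368 to 2038057 between the groups, and 6.38% to 9.57% of it lay in features matched to a gene. The Scr LNA pool on NCD, the control of 2 comparisons, stood apart in neutrophil markers, which summed to 21.4 FPKM against 1.65 to 7.24 FPKM in the other groups, and with 1 pool per group neither of those 2 comparisons could be made without it. Differences are given as log2 of FPKM + 0.1 in 1 group over FPKM + 0.1 in the other, which understates the change of low features. A feature was counted as past the threshold when the difference was at least 2-fold and its mean over the 4 groups was at least 0.1 FPKM. This filter kept 26805 features and 9 of the 10 Fabp features. All 3 comparisons use the Scr LNA groups, the one on NCD in 2 of them and the one on HFD in 2 of them.

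Fatty acids are poorly soluble in water, and inside cells they are carried by a family of small barrel-shaped binding proteins. The liver form, FABP1, is abundant in the cytosol of hepatocytes and delivers fatty acids to mitochondria, to the endoplasmic reticulum and to the nuclear receptor PPARA, which in turn drives the Fabp1 gene. FABP2 is the intestinal form, FABP4 the form of adipocytes and macrophages, FABP5 the epidermal form and FABP7 the form of brain and glia, and FABP5 and FABP7 also occur in some liver macrophages.

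The 3 oligonucleotides are shown because the groups are defined by them, and whether they could pair with a Fabp transcript bears on each comparison. Their sequences, read from the study's oligonucleotide sheet, are given 5′ to 3′ in lower case.
Scr LNA: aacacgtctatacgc
Mafg LNA: gtcttggactttacta
LincIRS2 LNA: ctcgattaacctgata

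Against 141767 annotated mouse transcripts, the Mafg LNA was fully complementary to 4 transcripts, all of Mafg, and the LincIRS2 LNA to 2, both of the LincIRS2 gene. The Scr LNA had a full complement in 0 transcripts. In the 8 annotated transcripts of the 5 Fabp genes the longest complementary stretch was 9 bases for the Mafg LNA, in Fabp5, 8 bases for the Scr LNA, in Fabp4 and Fabp5, and 7 bases for the LincIRS2 LNA, in Fabp5 and Fabp7. Mafg itself was not analysed here, so its lowering by the Mafg LNA was not checked. LincIRS2 had 0.558 FPKM in Scr LNA on NCD and 0.345 FPKM in LincIRS2 LNA on NCD, and 0.213 and 0.483 FPKM in Scr and Mafg LNA on HFD.

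Promoters of 3 of the 5 genes, from 250 bases before to 50 bases after the start, were matched in RefSeq (GRCm38.p6). Those of Fabp1 and Fabp2 are shown because these are the 2 abundant members, and under Scr LNA their levels differed in opposite directions between the diets. The Fabp1 window spans chr6:71199629-71199928 on the plus strand, and capitals mark, in order, TGCTGA, a direct repeat read on the minus strand as AGGNCA, any base and AGGNCA, and TATAAA. The Fabp2 window spans chr3:122894822-122895121 on the plus strand, and capitals mark CCAAT read on the minus strand and then TTGCNNAA.
Fabp1: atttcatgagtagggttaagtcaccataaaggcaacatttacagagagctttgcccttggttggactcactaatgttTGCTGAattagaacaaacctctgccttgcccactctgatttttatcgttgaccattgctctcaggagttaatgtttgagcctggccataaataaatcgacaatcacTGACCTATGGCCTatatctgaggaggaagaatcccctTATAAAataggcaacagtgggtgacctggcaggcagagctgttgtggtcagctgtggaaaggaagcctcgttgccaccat
Fabp2: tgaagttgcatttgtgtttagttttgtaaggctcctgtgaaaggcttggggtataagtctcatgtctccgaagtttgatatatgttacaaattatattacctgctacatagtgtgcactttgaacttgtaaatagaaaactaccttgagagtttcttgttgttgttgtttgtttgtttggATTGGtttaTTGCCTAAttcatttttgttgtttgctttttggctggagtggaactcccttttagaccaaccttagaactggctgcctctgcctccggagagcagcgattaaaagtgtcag

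The direct repeat, the kind of element bound by PPAR and HNF4A receptors, lay 67 to 55 bases before the Fabp1 start and overlaps an AGGTCA half-site there. It was found on either strand in 0.381% of 32851 promoters of this length, and in neither of the windows of Fabp2 and Fabp7. TGCTGA, the core of sites bound by MAF proteins, lay at 173 to 168 bases before the Fabp1 start and at 9 to 4 bases before the Fabp7 start, against 19.5% of all promoters. TATAAA lay 30 bases before the Fabp1 start (13.6% of promoters). In Fabp2, CCAAT (37.4% of promoters) lay 70 to 66 bases and TTGCNNAA, a C/EBP-type site (10.8%), 61 to 54 bases before the start. TTGCNNAA also occurred once in the Fabp1 window, over the TGCTGA. These are matches of letters, with no measure of binding in these data.

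Fabp1 (ENSMUSG00000054422, chromosome 6, 71199827 to 71205023 in GRCm38, plus strand, 4 exons) was by far the most abundant member. On its own strand it had 6246 FPKM in Scr LNA on NCD, 4547 in LincIRS2 LNA on NCD, 4607 in Scr LNA on HFD and 4421 in Mafg LNA on HFD. The Scr LNA group on NCD stood above the other 3 groups, which lay within 4421 to 4607 FPKM of each other, so the order did not follow diet. Among 61548 features matched to an Ensembl gene, Fabp1 ranked 2 in Scr LNA on HFD and 3 in the other groups, and held 3.11% to 3.76% of their summed FPKM. This rank and share are those of the listed values. Alb was listed at 0 in 3 groups, so they are not read as the standing of Fabp1 in liver RNA. On the opposite strand Fabp1 had 0.798, 0.994, 0.747 and 2.24 FPKM, and there the Mafg LNA group was the high one. The opposite-strand level was between 0.000128 and 0.000507 of the own-strand level.

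Fabp2 (ENSMUSG00000023057, chromosome 3, 122895072 to 122899506, plus strand, 4 exons), which binds long-chain fatty acids in enterocytes, came next. Its own-strand feature had 21.5 FPKM in Scr LNA on NCD, 20.5 in LincIRS2 LNA on NCD, 38.8 in Scr LNA on HFD and 35.9 in Mafg LNA on HFD. Both HFD groups were above both NCD groups. The opposite-strand feature was the higher of the pair and kept that order of diets, with 78.9, 73.5, 132 and 104 FPKM. The opposite-strand level was 3.66, 3.58, 3.41 and 2.90 times the own-strand level.

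Set against each other, Fabp1 was 290.1 times Fabp2 in Scr LNA on NCD and 221.4 times in LincIRS2 LNA on NCD, both on their own strands, but 118.7 times in Scr LNA on HFD and 123.3 times in Mafg LNA on HFD. Fabp2, both strands together, made up 1.58% and 2.02% of the summed Fabp FPKM in the NCD groups and 3.58% and 3.06% in the HFD groups. Fabp1 on its own strand made up 96.3% to 98.2% in the 4 groups. These are shares of FPKM, a level per length.

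Fabp5 (ENSMUSG00000027533, chromosome 3, 10012548 to 10016607, plus strand) had the largest spread. Its opposite-strand feature had 6.60 FPKM in Scr LNA on NCD, 6.24 in LincIRS2 LNA on NCD, 0.407 in Scr LNA on HFD and 0.387 in Mafg LNA on HFD. The groups fell into a high pair on NCD and a low pair on HFD, with little between the 2 oligonucleotides of each pair. Its own-strand feature was far lower, at 0.0219 and 0.0270 FPKM on NCD and 5.67e-07 and 3.32e-09 FPKM on HFD, and it alone of the 10 features did not pass the filter. It had the same order of diets, at levels that are near 0.

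Fabp7 (ENSMUSG00000019874, chromosome 10, 57784881 to 57788450, plus strand) had 1.68 FPKM on its own strand in Scr LNA on NCD, 0.581 in LincIRS2 LNA on NCD, 0.753 in Scr LNA on HFD and 1.22 in Mafg LNA on HFD. The opposite-strand feature had 0.816, 0.458, 0.424 and 0.713 FPKM. On both strands Scr LNA on NCD was highest and Mafg LNA on HFD next, so the groups did not separate by diet. The 2 features named Smpdl3a, the neighbouring gene in the same assembled locus, ranged from 1.46 to 1.75 FPKM and from 11.8 to 13.7 FPKM. Both were on the strand opposite to Smpdl3a, and no own-strand feature of it was listed there. The locus spans 57784881 to 57811975, past the end of Fabp7. Whether Smpdl3a transcripts enter the own-strand Fabp7 value was not tested.

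Fabp4 (ENSMUSG00000062515, chromosome 3, 10204088 to 10208576, minus strand) was low throughout. Its own-strand feature had 0.446, 0.377, 0.596 and 0.421 FPKM in Scr LNA on NCD, LincIRS2 LNA on NCD, Scr LNA on HFD and Mafg LNA on HFD. Its opposite-strand feature had 1.09, 0.543, 0.803 and 1.01 FPKM. The strands disagreed on which group was highest, Scr LNA on HFD on the own strand and Scr LNA on NCD on the opposite one.

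**Figure D1:**
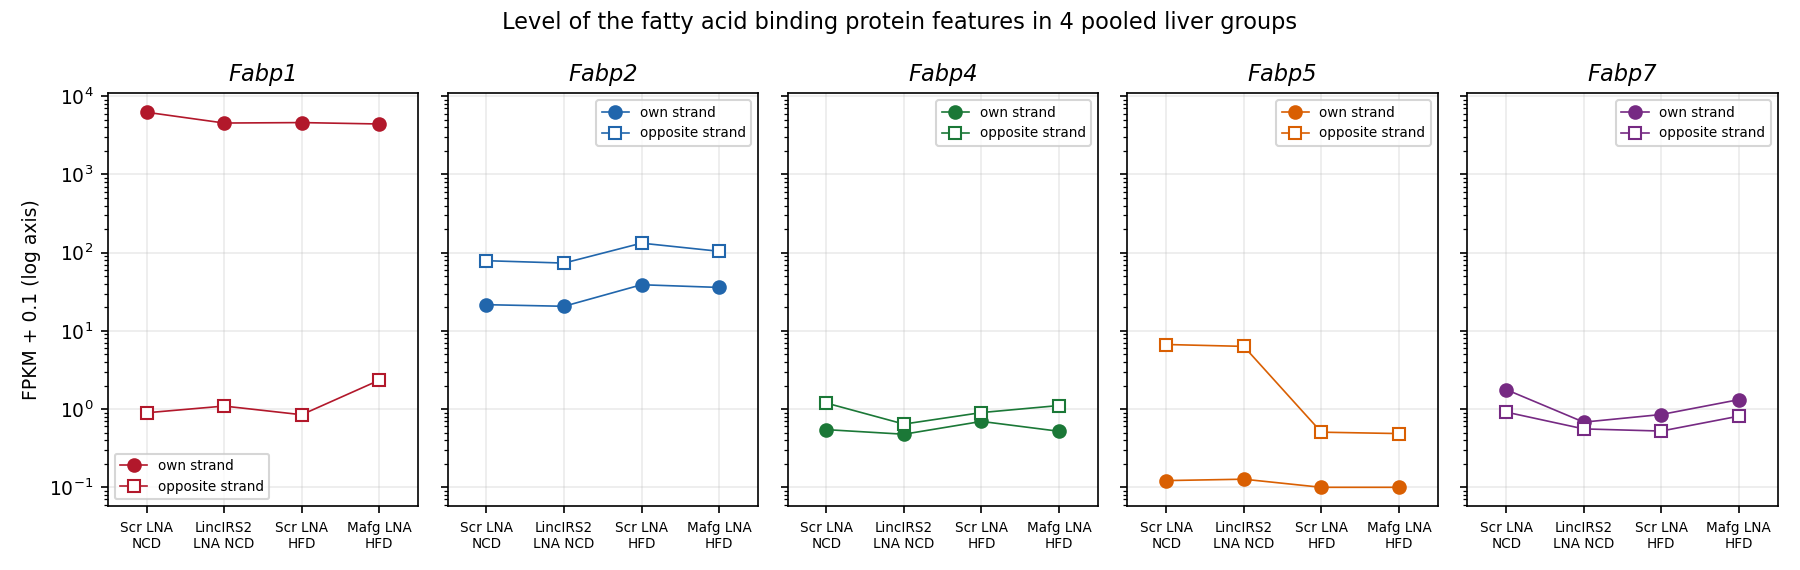
FPKM + 0.1 on a log axis for each member in the 4 groups, 1 pooled value per point, with filled circles for the feature on the gene's own strand and open squares for the opposite strand; lines only join the values of 1 feature. Fabp1 lies between 4421 and 6246 FPKM on its own strand, both Fabp2 features are higher on HFD, and the opposite-strand Fabp5 feature is at 6.60 and 6.24 FPKM on NCD and at 0.407 and 0.387 FPKM on HFD.

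The tables list 1 assembled transcript for each locus, and for 4 of the 5 own-strand Fabp features the locus held more, 4 for Fabp2, 3 for Fabp4, 6 for Fabp5 and 12 for Fabp7. Over the 10 Fabp loci 32 transcripts were assembled and 22 were not listed. Whether a value covers the listed transcript or the whole locus is not given in the sources used here, and an own-strand level may therefore leave out part of the gene. Fabp1 on its own strand and the opposite-strand features of Fabp2, Fabp4, Fabp5 and Fabp7 had 1 assembled transcript each. The strand so assigned was tested on matched features listed at 0 in all groups, and 99.9% of 25112 were on the strand of their gene. Of matched features that passed the filter, 39.5% were on their gene's own strand.

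With diet under Scr LNA, 2 of the 9 Fabp features that passed were at least 2-fold lower on HFD and 0 were at least 2-fold higher, against 3.94% and 4.19% of the 26805 features. The median log2 difference of the 9 was −0.40, beside 0.00 over all features. As the members were chosen with these values known, nothing is read from their count. Fabp5 on the opposite strand was 16.2-fold lower on HFD (log2 −3.72), and Fabp7 on its own strand 2.23-fold lower (−1.06). Fabp7 on the opposite strand, 1.92-fold lower (−0.81), lay just inside the threshold. Fabp2 was higher on HFD by 0.85 on the log2 scale on its own strand, and 1.68-fold higher on the opposite strand (0.75). Fabp1 was 1.36-fold lower on its own strand (−0.44), and Fabp4 stood at 0.35 on its own strand and −0.40 on the opposite one.

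With Mafg LNA on HFD, 1 of the 9 features was at least 2-fold higher and 0 were at least 2-fold lower, against 7.89% and 4.0% of all features. It was the opposite-strand feature of Fabp1, at 2.24 against 0.747 FPKM (log2 1.47). The median of the 9 was −0.06, beside 0.02 over all features. The abundant own-strand feature of Fabp1 was within 1.04-fold of the control (−0.06), Fabp5 on the opposite strand within 1.05-fold (−0.06), and Fabp2 was 1.08-fold lower on its own strand and 1.27-fold lower on the opposite strand. Fabp7 was 1.62-fold higher on its own strand and 1.68-fold higher on the opposite strand (0.63 on each).

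With LincIRS2 LNA on NCD, 1 of the 9 features was at least 2-fold lower and 0 were at least 2-fold higher, against 3.26% and 3.12% of all features. It was Fabp7 on its own strand, 2.88-fold lower (log2 −1.38), with 1.78-fold lower on the opposite strand (−0.71). The median of the 9 was −0.19, beside 0.01 over all features. Fabp4 on the opposite strand had 0.543 against 1.09 FPKM, a log2 difference of −0.89 that missed the threshold only through the added 0.1. Fabp1 was 1.37-fold lower on its own strand (−0.46), Fabp2 1.05-fold and 1.07-fold lower on the 2 strands, and Fabp5 1.06-fold lower on the opposite strand.

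**Figure D2:**
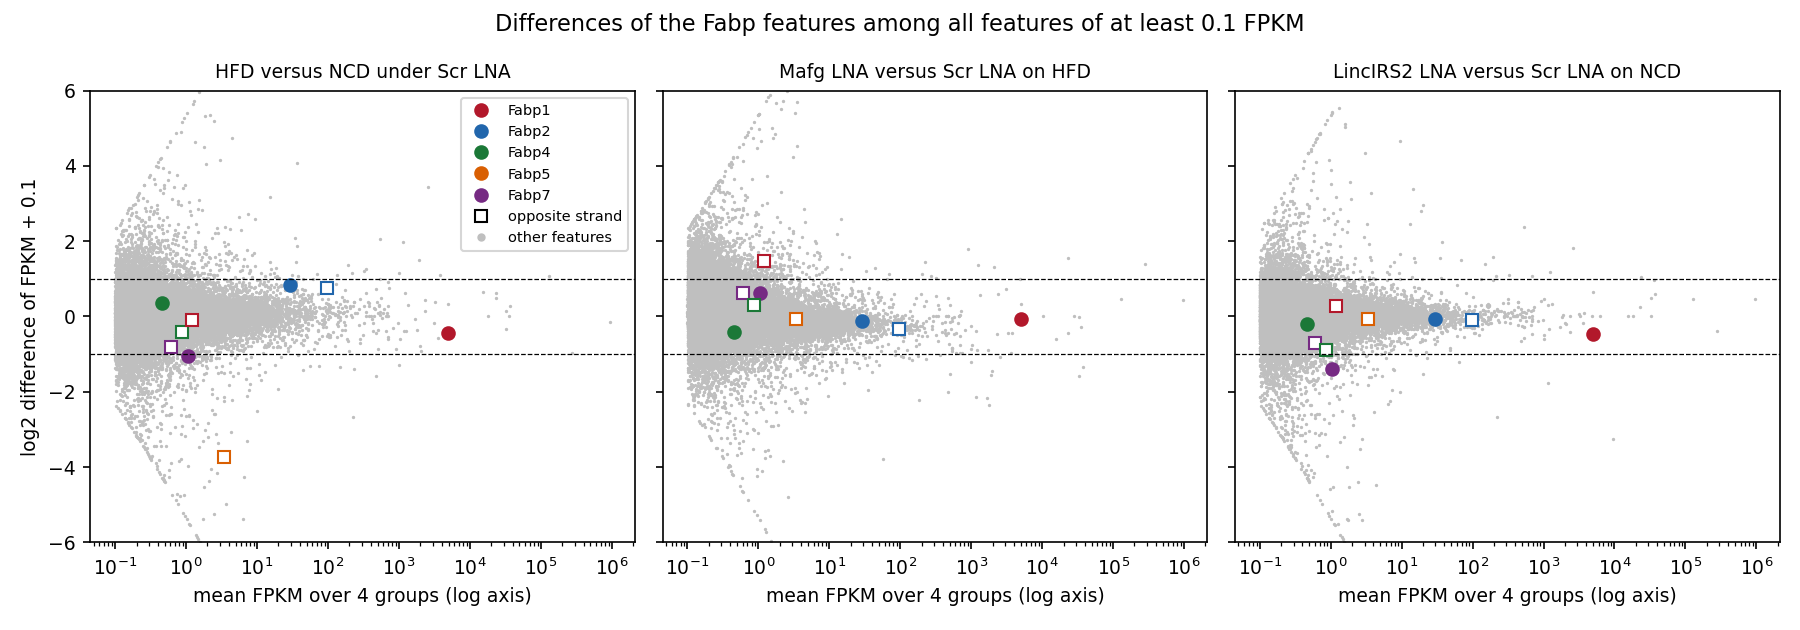
Log2 difference of FPKM + 0.1 against the mean FPKM over the 4 groups (log axis) in the 3 comparisons, with grey dots for features of at least 0.1 FPKM, coloured circles for Fabp features on their own strand, open squares for the opposite strand and dashed lines at 2-fold; 117 grey points past 6 in size are not drawn. Fabp5 on the opposite strand lies at −3.72 with diet and near 0 in the other 2 comparisons, and Fabp1 on its own strand lies at −0.44, −0.06 and −0.46.

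Fabp5 has near-identical copies, and reads of a copy and of the gene could be split between them. At stretches of 50 bases, the other 4 members shared none with any annotated transcript of another gene. The transcript of Gm6166 (chromosome 9, 57483963 to 57484371, plus strand), a processed pseudogene of 409 bases, aligned to the coding transcript of Fabp5 over 407 bases with 5 differences (98.8% identity) and a longest identical run of 179 bases. The pair is shown over the 120 bases of the coding part with the most differences, bases 351 to 470 of the Fabp5 transcript and 261 to 380 of that of Gm6166 as annotated on GRCm38, in lower case with the 2 differing bases in capitals.
Fabp5: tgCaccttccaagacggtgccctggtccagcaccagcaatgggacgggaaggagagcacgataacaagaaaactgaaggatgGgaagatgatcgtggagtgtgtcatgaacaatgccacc
Gm6166: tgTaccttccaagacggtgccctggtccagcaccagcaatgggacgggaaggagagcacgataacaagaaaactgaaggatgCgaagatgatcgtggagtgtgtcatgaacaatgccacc

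Gm6166, on the strand opposite to its annotation, had 5.28 FPKM in Scr LNA on NCD, 5.16 in LincIRS2 LNA on NCD, 0.201 in Scr LNA on HFD and 0.190 in Mafg LNA on HFD. This is the same high pair and low pair as Fabp5 on the opposite strand, at a somewhat lower level. Of the other annotated copies that share such a stretch with Fabp5, Gm13998 had 0.506, 0.635, 0.523 and 0.571 FPKM and Fabp5l2 0.164, 0.199, 0.167 and 0.260 FPKM, with no gap between the diets, and Gm14328 and Gm6100 were listed at 0. Of the 50-base stretches of the coding transcript of Fabp5, 184 of 938 (19.6%) were shared with Gm6166. The opposite-strand Fabp5 feature was matched to a longer transcript of 3238 bases that keeps an intron. Of its stretches 130 of 3189 (4.08%) were shared. Reads from shared stretches cannot be told apart in these tables, so the Fabp5 and Gm6166 values are uncertain between the pair. How far such reads enter either value was not tested.

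Likeness was measured as the distance between log2 profiles over the 4 groups, each centred on its mean, among 6419 genes of at least 1 FPKM. Each gene was read by its feature of the highest mean, on either strand. Gm6166 was nearest to Fabp5 (distance 0.458), followed by the adhesion receptor gene Adgrf1 (0.974) and Serpina1a, a plasma protease inhibitor gene (1.48). No gene lay within 0.25 of Fabp5 or of Fabp7. The nearest to Fabp7 were the complement gene C1qb (0.331), the annexin gene Anxa4 (0.345) and Ly86, a lymphocyte antigen gene (0.380). Nearest to Fabp2 were Anp32a (0.0257), the aldo-keto reductase gene Akr1c20 (0.0613) and the histone gene Hist1h3i (0.0668), and nearest to Fabp1 were Gm26882 (0.0439), Rbm25 (0.0709) and Snrpd2 (0.0771). For Fabp4 they were Prkra (0.107), Cd300c2 (0.158) and the retinoic acid hydroxylase gene Cyp26a1 (0.166). Within 0.25 of Fabp1 there were 298 genes, of Fabp2 40 and of Fabp4 11, so a close profile over 4 values is common for members that vary little.

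Markers of other cells moved with some of these features, and they were read as 1 feature per gene, that of the highest mean, on either strand. In this list and those below, that feature lay on the opposite strand for many genes, such as C1qb, Mpeg1 and Cd36. For others, such as Csf1r and S100a8, it lay on the gene's own strand. Medians and sums of the lists therefore mix features of both strands. Of 15 macrophage and Kupffer cell markers that passed, 14 were below 0 with diet, 13 above 0 with Mafg LNA and 15 below 0 with LincIRS2 LNA, with medians of −0.63, 0.62 and −0.70. The summed FPKM of the 20 matched markers was 84.4 in Scr LNA on NCD, 53.9 in LincIRS2 LNA on NCD, 57.2 in Scr LNA on HFD and 79.2 in Mafg LNA on HFD, the same order of groups as Fabp7 on its own strand. Mpeg1, the most abundant, had 18.5, 17.2, 16.5 and 20.7 FPKM. Past 2-fold were Ccr2 (1.51), Marco (1.17) and Trem2 (1.00) higher and Cd163 (−1.37) lower with Mafg LNA, and Csf1r (−1.60) and Marco (−1.10) lower with LincIRS2 LNA. Their part in the Fabp7 and Fabp4 values was not tested.

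Neutrophil markers differed more. All 7 that passed were at least 2-fold lower with diet, 6 were at least 2-fold higher with Mafg LNA and 7 at least 2-fold lower with LincIRS2 LNA, with medians of −3.11, 1.64 and −3.26. All 10 listed markers summed to 21.4 FPKM in Scr LNA on NCD and 1.65 FPKM in LincIRS2 LNA on NCD. On HFD they summed to 1.83 FPKM in Scr LNA and 7.24 FPKM in Mafg LNA. The list was led by S100a8, at 7.60, 0.702, 0.643 and 2.25 FPKM in the same order of groups. The Scr LNA pool on NCD was the high one. Between these 2 NCD pools Fabp5 on the opposite strand was at 6.60 and 6.24 FPKM, where the markers were at 21.4 and 1.65 FPKM. The part of these cells in the Fabp5 values was not tested.

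**Figure D3:**
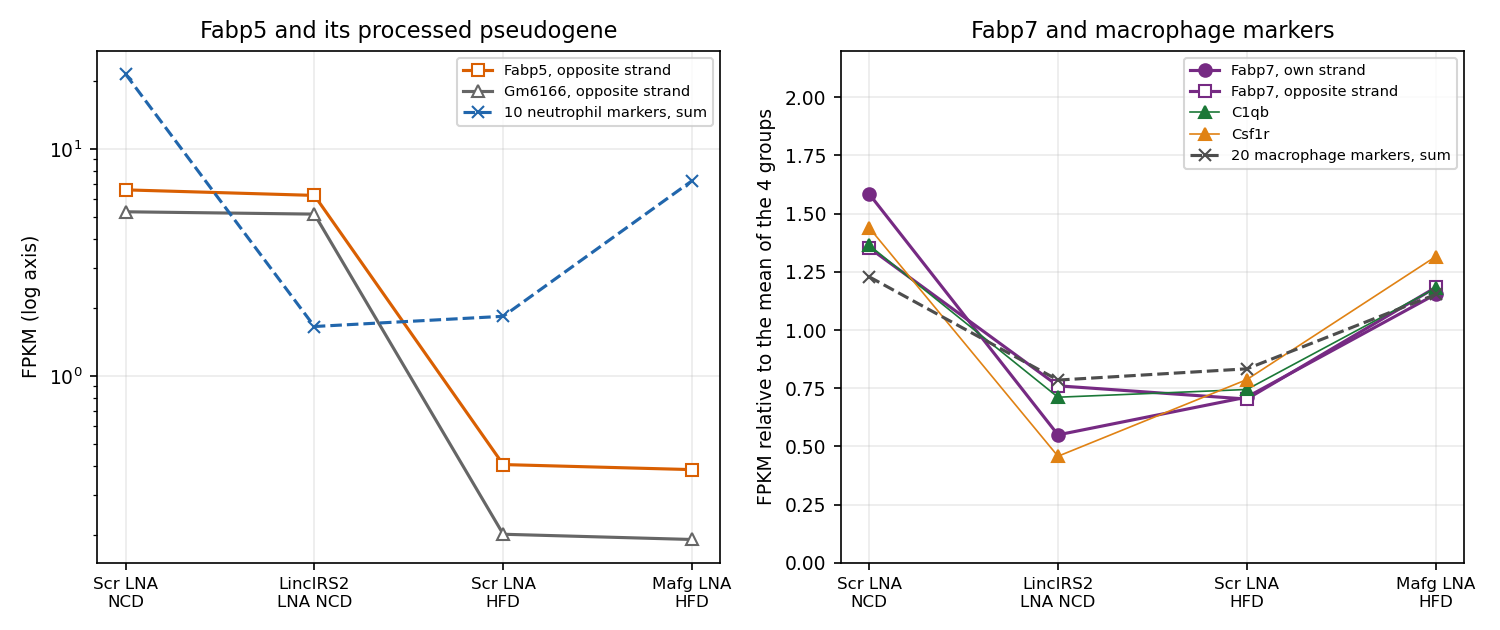
Left, FPKM on a log axis of the opposite-strand features of Fabp5 and Gm6166 and the sum of 10 neutrophil markers in the 4 groups; right, FPKM relative to the mean of the 4 groups for both Fabp7 features, C1qb, Csf1r and the sum of 20 macrophage markers. Fabp5 and Gm6166 separate by diet. The neutrophil sum is at 21.4 FPKM in Scr LNA on NCD and 1.65 FPKM in LincIRS2 LNA on NCD. Fabp7 is highest in Scr LNA on NCD and next in Mafg LNA on HFD, as C1qb is.

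Markers of the tissues that the other members are named for were read in the same way, and those listed at 0 are not read as absent. Of 10 enterocyte markers 2 passed the filter, Apoa4, which liver also makes, and Cdhr5, and Vil1, Rbp2 and Cdx1 were listed at 0 in all groups. Apoa4 had 14.2, 28.8, 39.1 and 60.3 FPKM in Scr LNA on NCD, LincIRS2 LNA on NCD, Scr LNA on HFD and Mafg LNA on HFD, past 2-fold with diet (1.46) and with LincIRS2 LNA (1.02), the only gene of the list to be so (medians of the pair 0.64, 0.11 and 0.53). The summed level of the list followed it, at 21.9, 36.7, 46.0 and 65.5 FPKM. Of 10 adipocyte markers 5 passed, and all 10 together summed to 3.11 to 8.09 FPKM. Adipoq was 0.735 FPKM in Scr LNA on NCD and at most 0.0265 FPKM in the others, and Cfd reached 3.51 FPKM in Mafg LNA on HFD, whereas Fabp4 was at most 1.09 FPKM. Adipoq was past 2-fold with diet (−3.06) and LincIRS2 LNA (−2.72), and Cfd in all 3 comparisons (1.15, 1.98 and −1.02), with list medians of 0.35, 0.39 and −0.52. Cidec is also in the list of PPAR genes and targets. The part of these markers in the Fabp4 values was not tested. Of 11 keratinocyte markers 4 passed, and Krt5, Krt1, Krt15, Trp63 and Dsg3 were listed at 0. The sum of all 11 was higher on HFD (18.8 and 28.3 FPKM) than on NCD (12.4 and 14.4 FPKM). It rested largely on Perp and, in Mafg LNA on HFD, on Ly6d as well. Perp, the most abundant of them, had 10.9, 12.2, 15.9 and 13.2 FPKM in the order of groups given for Apoa4. Ly6d had 12.9 FPKM in Mafg LNA on HFD (4.53). The part of keratinocytes in the Fabp5 values was not tested. Sprr1a was past 2-fold with diet (1.46) and with Mafg LNA (1.39), and the list medians were 0.70, 0.57 and 0.29.

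Of the hepatocyte markers, the apolipoprotein genes Apoa2 and Apoa1 were abundant, at 2926 to 3946 FPKM and 581 to 1499 FPKM, but Alb was listed at 0 in 3 groups and at 2663 FPKM in LincIRS2 LNA on NCD. A listed 0 in these tables can thus stand beside a gene that liver cells use, and hepatocyte sums are not compared. Of the 11 hepatocyte markers that passed, Serpina1a was at least 2-fold lower with diet (−4.26) and higher with Mafg LNA (1.95), and with LincIRS2 LNA only Alb, listed at 0 in the control, was past 2-fold. Serpina1a has close paralogs that could share its reads, which makes its level uncertain. The medians were −0.11, 0.00 and 0.02. None of the 12 endothelial markers that passed was past 2-fold in any of the 3 comparisons (medians −0.17, −0.26 and −0.20). All 16 listed endothelial markers summed to 23.4 to 34.6 FPKM. Of 7 cholangiocyte markers Tff3 (−2.24) was past 2-fold with diet and Krt19 (−1.05) with LincIRS2 LNA (medians 0.08, 0.09 and 0.07), and the list summed to 14.6 to 21.9 FPKM, with Spp1 the most abundant.

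Of the rest of the binding protein family, Fabp12 passed the filter, with 0.167 FPKM in Scr LNA on NCD, 0.0645 in LincIRS2 LNA on NCD, 0.0729 in Scr LNA on HFD and 0.137 in Mafg LNA on HFD. It was highest in Scr LNA on NCD and next in Mafg LNA on HFD, as Fabp7 and the opposite-strand Fabp4 feature were, and was not past 2-fold in any of the 3 comparisons (−0.63, 0.46 and −0.70). Fabp6, the ileal bile acid binding protein, Rbp2, Crabp1 and Crabp2 were listed at 0, and Fabp3, the heart form, was at most 5.30e-47 FPKM. Since Alb is also listed at 0 in 3 groups, these values are not read as a low level of the genes.

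Fabp5, Pmp2, Fabp4 and Fabp12 lie in 1 cluster on chromosome 3, with the gene starts of Pmp2, Fabp4 and Fabp12 at 167.3, 191.5 and 231.7 kb from that of Fabp5. Fabp4 and Fabp12 had no gap between the diets, and Pmp2 was 0.00653 FPKM in Scr LNA on NCD and listed at 0 elsewhere. Gm37308, between Fabp5 and Pmp2, had 0.744 and 0.692 FPKM on NCD and 0.562 and 0.523 FPKM on HFD, a smaller gap of the same direction as that of Fabp5.

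Of the genes that bring fatty acids into the cell and activate them, those that passed the filter had no common direction. Of 11 that passed among 18, 1 was at least 2-fold higher and 1 lower with diet, 1 higher and 2 lower with Mafg LNA, and 0 in either direction with LincIRS2 LNA, with medians of −0.09, 0.03 and −0.08. Across the 13194 genes that passed, 3.0% were at least 2-fold higher and 3.09% lower with diet, 4.91% and 3.28% with Mafg LNA, and 2.17% and 2.42% with LincIRS2 LNA. Cd36, the fatty acid translocase, had 1.32 FPKM in Scr LNA on NCD, 1.04 in LincIRS2 LNA on NCD, 3.62 in Scr LNA on HFD and 4.51 in Mafg LNA on HFD (1.39 with diet), and the acyl-CoA synthetase gene Acsl3 was lower with diet (−1.27). Slc27a5, a very long-chain acyl-CoA synthetase of liver and the most abundant of the list, had 103, 111, 130 and 62.6 FPKM (−1.05 with Mafg LNA). The lipase genes Lpl and Lipc stood at 1.60 and −1.46 with Mafg LNA. Acsl1, Slc27a2 and Dbi were among those that did not pass, at no more than 0.0661, 0.110 and 0.0376 FPKM. As with Alb, these values are not read as a low level, and the direction of these genes is unknown here.

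PPARA is a regulator of Fabp1, and PPARG of Fabp4, so a list of their other targets was set beside them. The list also holds the receptor genes Ppara, Ppard, Pparg and Rxra. Of 26 that passed, 21 were above 0 with diet, 3 at least 2-fold higher and 2 lower, with a median of 0.38. The 3 were the fatty acid hydroxylase gene Cyp4a14 (2.65), Vnn1 (1.63) and Pparg itself (1.40). The 2 were Cyp4a10 (−2.21) and Cyp4a12a (−1.61). The Cyp4a family shares sequence, so the values of Cyp4a14, Cyp4a10 and Cyp4a12a are all uncertain. Fabp2 lay with most of the list, on the high side with diet, and Fabp1 did not. With Mafg LNA 14 of the 26 were above 0 and only Cyp4a12a (1.21) was past 2-fold, median 0.06, and with LincIRS2 LNA 17 were above 0 and 0 past 2-fold, median 0.06.

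**Figure D4:**
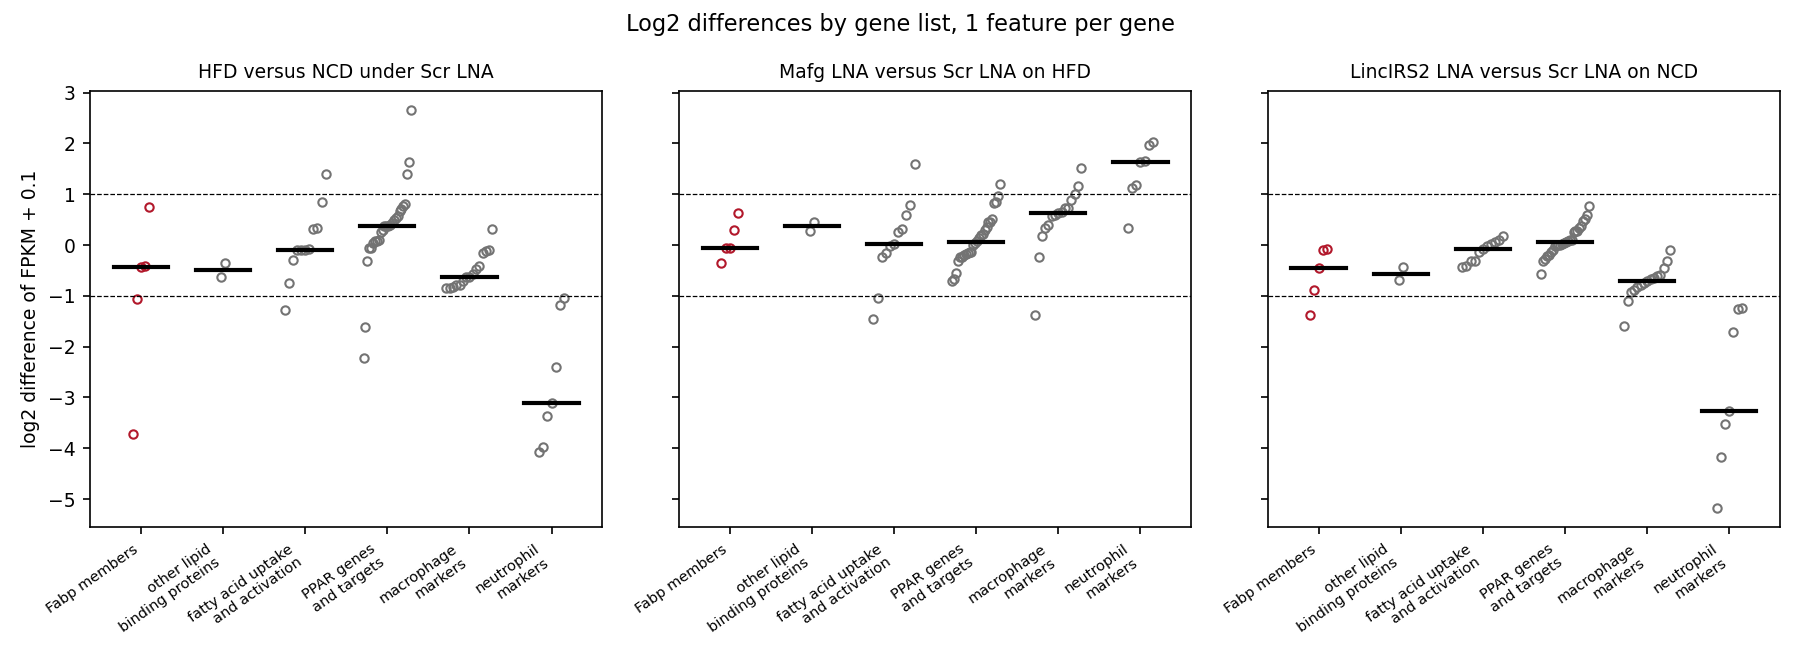
Log2 difference of FPKM + 0.1 for each gene that passed the filter, 1 feature per gene, in 6 of the lists and the 3 comparisons, with black bars for the median of a list and dashed lines at 2-fold. The Fabp members spread from −3.72 to 0.75 with diet, PPAR genes and targets have a median of 0.38 there, and neutrophil markers have medians of −3.11, 1.64 and −3.26.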

How the data were processed

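Liver total RNA was depleted of rRNA and sequenced as strand-specific paired-end libraries. Per the labels, the processing used Bowtie2 2.2.9, STAR 2.6.0c, Cufflinks 2.2.1 and Cuffdiff, with mm10/GRCm38. The authors deposited 1 FPKM value per feature and group, pooled over 4 livers, in 3 tables. The tables also hold the authors' fold changes, test statistics, p-values and q-values, which were not used. The members and gene lists were chosen with earlier results of these data known. Named beside the 5 members were, of each list, up to 4 genes of the largest differences and its most abundant gene, and the 3 nearest profiles per member, and copies and neighbours of the members were added after their values were seen. Log2 differences used a pseudocount of 0.1 FPKM, a mean of at least 0.1 FPKM and a 2-fold threshold, and the calculation was tested on simulated data. Alternatives were pseudocounts of 0.01 and 1, no filter or a mean of at least 1 FPKM, a 1.5-fold threshold, centring on the median, and summed features. Motifs, alignments and gene models came from RefSeq (GRCm38.p6) and GENCODE. Python 3.11.15, pandas 2.3.3 and numpy 2.4.6 were used. The other 2 groups, 8 livers, were not analysed here. Most genes of the lists enter only the counts, medians and sums, and some that the naming rule covers are not reported here.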

Additional observations from a re-analysis of the deposited data

How the results depend on the processing

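No paired analysis was possible because each group had 1 pooled value, and no liver could be left out for the same reason. With a pseudocount of 1 FPKM, the Fabp features past the threshold numbered 1 for the diets, 0 for Mafg LNA and 0 for LincIRS2 LNA, and with a 1.5-fold threshold 5, 3 and 3, against 2, 1 and 1. The other pseudocount, both other filters and centring gave 2, 1 and 1 again. Summed features were run for the gene differences only. With a pseudocount of 1 FPKM Fabp7 had −0.61 with diet and −0.76 with LincIRS2 LNA, and its own-strand calls were lost. Fabp5 with diet rests on its opposite-strand feature: on its own strand the log2 difference was −0.29 (a choice made after seeing the data), as that feature is near 0 in all groups. The gene differences were followed on 1 feature per gene, that of the highest mean, and none past the threshold turned in direction under the alternatives run. The opposite-strand Fabp1 feature, past the threshold with Mafg LNA, was not covered by this check. Over features matched to a gene with at least 1 FPKM the median moved by 0.02, −0.08 and 0.02. The depth is unknown, so values of Fabp4, Fabp7 and the opposite-strand Fabp1 feature, near 1 FPKM, carry an unknown counting error.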
